A study of Mus musculus with 8 samples.

Results

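Transcripts of semaphorin signalling were followed in hearts of newborn mice without connexin43. The 8 genes were chosen by symbol: the ligand genes Sema3c, Sema3a and Sema4d, the neuropilin genes Nrp1 and Nrp2, and the plexin genes Plxna2, Plxnb2 and Plxnd1. All 8 had at least 1 spot on the array, which carried 10225 genes with a single symbol. A gene counted as measured with at least 3 null and 3 wildtype values, which 6 of the 8 reached, as did 7603 genes in all. Sema3a and Nrp2 fell short.

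The null pools came from neonatal C57BL mice null for connexin43, and the wildtype pools from neonatal wildtype C57BL mice, with 4 pools of 3 hearts per genotype. Every array set 1 pool, labelled with Cy3, against the same adult reference, labelled with Cy5 and mixed from heart, aorta and other tissues of both sexes. The unit is the log2 ratio of heart to reference after each array was centred on its median, so that a value of 0 is the level at which the median spot lies and not an absence of transcript. Because the reference holds heart and vessels itself and dyes were not swapped, a ratio says little about abundance, and ratios of different genes are set against each other only once, to read the direction of the ratio. The labels do not say how the null allele was made, or whether pools came from the same litters. The p-values measure the spread between pools, and in pooled hearts fewer cells of a type and less RNA per cell cannot be told apart.

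Semaphorins are secreted or membrane-bound guidance proteins that steer migrating cells and growing nerves and vessels. They bind plexins, which act on small GTPases and the cytoskeleton, and secreted class 3 semaphorins in most cases need a neuropilin as a co-receptor. In the mouse embryo, SEMA3C from the muscle of the outflow tract attracts cardiac neural crest cells, which help to divide the tract into aorta and pulmonary artery. Mice without connexin43, the gap junction protein encoded by Gja1, die around birth with an obstructed right ventricular outflow tract.

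Gja1 was lower on each null array than on any wildtype array. It had log2 ratios of -0.29, 0.25, 0.12 and 0.22 in null hearts, against 1.04, 1.31, 0.99 and 0.79 in wildtype hearts (exact two-sided permutation test, p = 0.0286, the smallest that 70 assignments allow). The difference was -0.95 (SE 0.15, limma adjusted p = 0.340). Whether its 1 spot lies in the deleted part is not known here. Values were present at 17879 to 20212 of 28704 spots on null arrays and at 12971 to 23929 on wildtype arrays. Wildtype replicate 1 had the fewest spots, and its rank correlations with the others had a median of 0.576, against medians of 0.663 to 0.792 elsewhere. Heart muscle markers lay above markers of other adult tissues on 8 of 8 arrays, with medians of 0.63 to 0.95 against -3.23 to -1.95. In the limma fit over 11804 features, 0 passed an adjusted p of 0.05 (0% called), and 972 had an unadjusted p under 0.05 (8.23%), of which 248 were higher in null hearts (2.1% of all features) and 724 lower (6.13%).

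None of the 6 measured members differed between the genotypes beyond the spread of the pools. Sema3c had the largest difference, with a value 1.28-fold lower in null hearts, and Nrp1 followed with a value 1.17-fold higher. That order rests on wildtype replicate 1, without which the log2 differences were -0.14 for Sema3c and 0.20 for Nrp1. The other 4 differed by at most 0.04 on the log2 scale. With limma, 0 of the 6 passed when adjusted over all features, against 0% of all features. An unadjusted p under 0.05 was found for 0 of the 6 in either direction, against 2.1% of all features higher and 6.13% lower in null hearts. In 0 of the 6 did the arrays of the genotypes separate without overlap, against 7.54% of all features (2% higher and 5.54% lower in null hearts). Values were higher in null hearts for 4 members, beside 40.9% of all features, and lower for 2, beside 59.1%. The median difference was 0.02, beside -0.04 for all features.

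**Figure D1:**
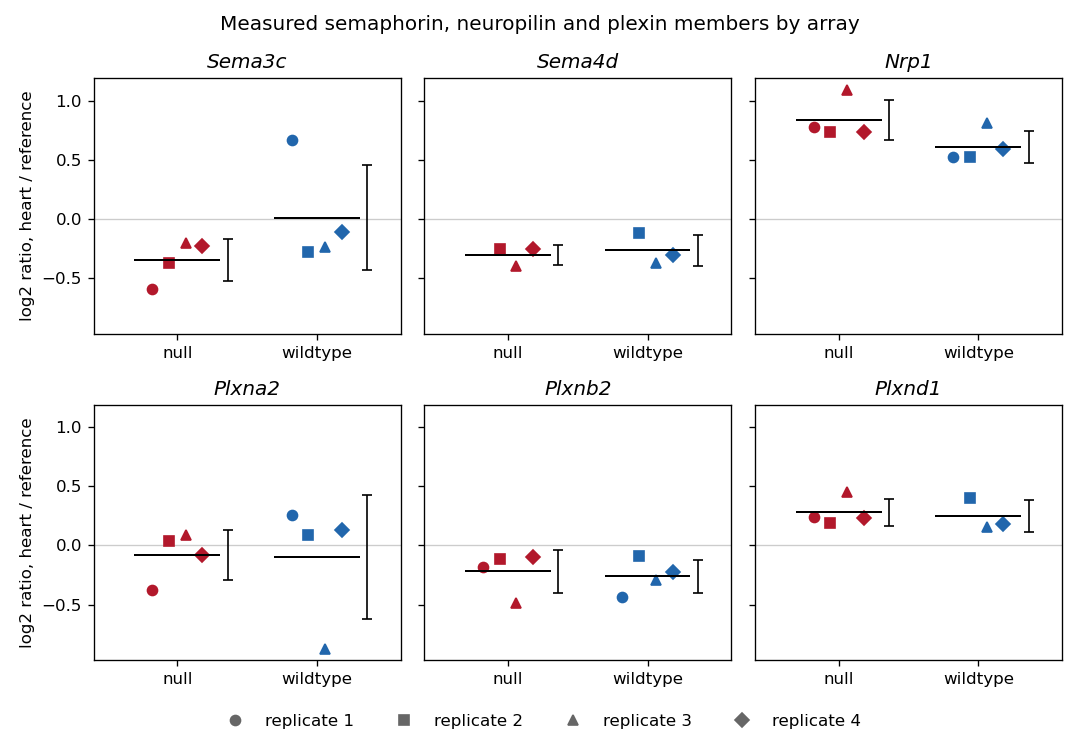
The plot shows the log2 ratio of heart over reference (vertical axis) of the 6 measured members on each null and wildtype array, with symbols for replicate numbers, a line at the mean and a bar of 1 SD. Genotypes overlap in every panel, and wildtype replicate 1 for Sema3c (0.66) and wildtype replicate 3 for Plxna2 (-0.87) stand away from the other wildtype arrays.

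Among the ligands, Sema3c encodes the secreted semaphorin that draws neural crest cells into the outflow tract. Its log2 ratio was -0.59, -0.37, -0.20 and -0.22 in null hearts, against 0.66, -0.28, -0.24 and -0.11 in wildtype hearts. Wildtype replicate 1 alone was above 0, and the other 3 wildtype values lay within the range of the null values or just above it. Null hearts averaged -0.35 ± 0.18 and wildtype hearts 0.01 ± 0.44 (SD, n = 4 each), a difference of -0.36 (SE 0.20, 95% interval -0.79 to 0.08, limma adjusted p = 0.628). Without wildtype replicate 1 the difference was -0.14 (adjusted p = 0.780).

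A second Sema3c spot was too sparse for the rule. It read -0.69 and -0.71 on null replicates 3 and 4 and had no value on the other 2 null arrays. On the wildtype arrays it read -0.01, -0.19, -0.20 and -0.34, all above both null values. With at least 2 arrays per genotype in place of 3, both spots entered, the genotypes did not overlap, and the difference was -0.45 (adjusted p = 0.571). Null replicates 1 and 2 entered there by the first spot alone, shifted by the fitted spot effect. The share of all features without overlap in that setting is not given here.

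The stretch in front of the Sema3c start site is shown with that of Plxna2, since both genes are known targets of the transcription factor GATA6 in outflow tract development. Each is the 250 bases before the RefSeq start in GRCm38.p6, on the plus strand, at chr5:17574566-17574815 and chr1:194619579-194619828. Capitals mark the GATA hexamer searched for on both strands, which is GATA after an A or a T and before an A or a G.
Sema3c: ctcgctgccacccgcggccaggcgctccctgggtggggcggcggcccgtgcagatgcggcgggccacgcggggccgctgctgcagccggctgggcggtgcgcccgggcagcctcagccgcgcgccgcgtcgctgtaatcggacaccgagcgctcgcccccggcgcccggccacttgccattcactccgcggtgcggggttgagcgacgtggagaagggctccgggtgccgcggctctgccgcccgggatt
Plxna2: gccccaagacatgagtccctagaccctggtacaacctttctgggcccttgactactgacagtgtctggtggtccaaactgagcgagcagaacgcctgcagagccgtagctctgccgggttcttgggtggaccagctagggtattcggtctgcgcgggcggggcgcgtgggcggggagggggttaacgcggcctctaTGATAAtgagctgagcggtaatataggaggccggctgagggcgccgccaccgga
The Sema3c window held 0 such hexamers and the Plxna2 window 1, starting at position -54 from the start site. No match says only that these letters are not in the window. Among the 32851 windows of this length, 26.5% held at least 1, and 3 of the 11 windows of the 8 members did. G and C made up 78.4% of the Sema3c window and 62.8% of the Plxna2 window, against a median of 52.4% over all windows. Gata6, chosen for mention after its values were seen, read 1.25, 1.55, 1.54 and 1.46 in null hearts, against 1.43, 1.31, 1.08 and 1.70 in wildtype hearts. Its genotypes overlapped, with a difference of 0.07 (SE 0.14, limma adjusted p = 0.915).

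Sema3a encodes a semaphorin that repels axons and patterns the sympathetic nerves of the mouse heart. Its 1 spot had a value on 1 of 8 arrays, 0.10 on wildtype replicate 4, and no comparison can be made. Sema4d encodes a membrane-bound semaphorin best known from lymphocytes and as the ligand of plexin B1. It read -0.25, -0.40 and -0.25 on null replicates 2, 3 and 4, against -0.12, -0.37 and -0.30 on the same numbers of wildtype arrays, with no value on replicate 1 of either genotype. The genotypes overlapped, with a difference of -0.04 (SE 0.13, 95% interval -0.33 to 0.26, adjusted p = 0.948). Its second spot had values on 2 arrays of each genotype and was not used.

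Of the co-receptors, NRP1 binds class 3 semaphorins and also VEGF-A, and is needed in mice for both vessel growth and division of the outflow tract. Nrp1 had log2 ratios of 0.78, 0.74, 1.09 and 0.74 in null hearts, against 0.52, 0.52, 0.81 and 0.59 in wildtype hearts. Null replicate 3 was highest, and wildtype replicate 3, at 0.81, was the 1 wildtype array that reached into the null range. Null hearts averaged 0.84 ± 0.17 and wildtype hearts 0.61 ± 0.14 (SD, n = 4 each), a difference of 0.23 (SE 0.12, 95% interval -0.04 to 0.49, limma adjusted p = 0.620). It was 0.14 without null replicate 3 (adjusted p = 0.823) and 0.07 without centring of the arrays (adjusted p = 0.826), where the median of all features was at -0.18.

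Over 3035 genes with at least 2 spots in use, the differences on the first 2 had opposite signs in 40.3% (Pearson's r = 0.26). The 3 spots of Nrp1 all had higher means in null hearts, by 0.33, 0.39 and 0.12. The second of them had values on 2 wildtype arrays and did not enter the average. On the first spot null replicate 3 read 1.28, against 0.55 to 0.63 on the other null arrays, whereas on the third spot the same array read 0.90, within the 0.84 to 0.97 of the others. Wildtype arrays read 0.67, 0.80, 1.01 and 0.68 on the third spot, so that wildtype replicate 3 lay above all null values there. The shared sign of the 3 spots is a description. NRP2, the other co-receptor, binds SEMA3C and SEMA3F as well as VEGF-C and serves lymphatic vessels. The 1 spot of Nrp2 had a value on 0 of 8 arrays.

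**Figure D2:**
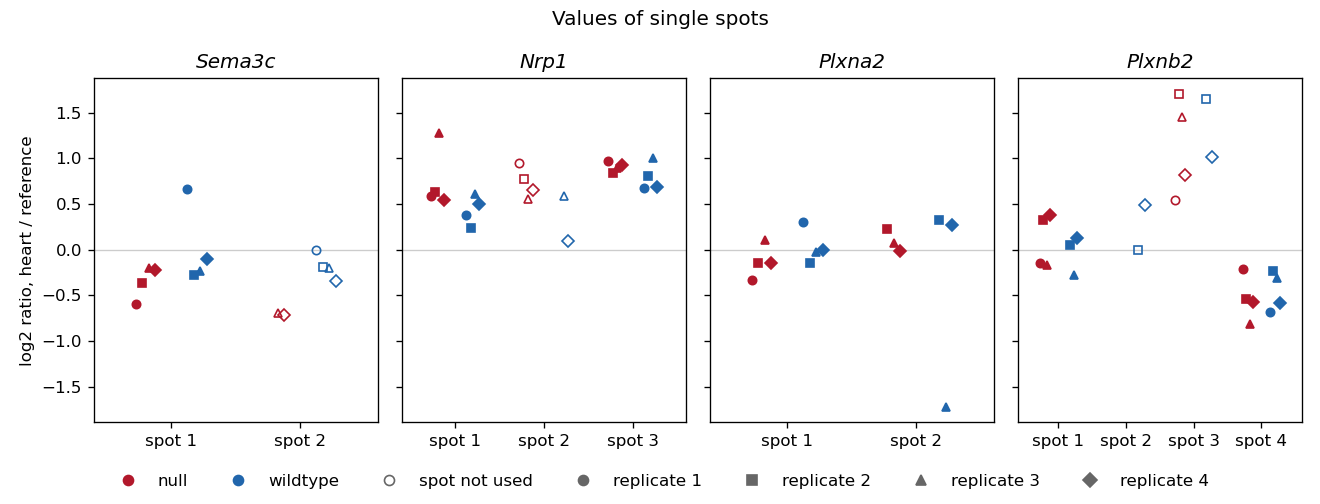
The plot shows the log2 ratio of heart over reference (vertical axis) on every single spot of Sema3c, Nrp1, Plxna2 and Plxnb2, null arrays in red left of wildtype arrays in blue, open symbols for spots that were not used. The second spot of Plxna2 holds the value of -1.72 on wildtype replicate 3, and the 3 Nrp1 spots all lie above 0.

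Among the receptors, plexin A2 marks migrating cardiac neural crest cells in the mouse embryo. Plxna2 read -0.38, 0.04, 0.09 and -0.08 in null hearts, against 0.26, 0.09, -0.87 and 0.13 in wildtype hearts. Wildtype replicate 3 was lowest of all arrays. The other 3 wildtype values lay above all null values, the closest of them by less than 0.01. That order holds for the fitted average of 2 spots, where replicate 1 of both genotypes entered by the first spot alone. On the first spot, wildtype replicates 2 and 4 read -0.15 and -0.005, below the 0.11 of null replicate 3. The difference was 0.01 (SE 0.23, 95% interval -0.48 to 0.51, adjusted p = 0.987), an interval wider than those of the other 5 members. Its 2 spots read opposite differences, -0.16 and 0.47. The second spot read -1.72 on wildtype replicate 3, against 0.33 and 0.27 on wildtype replicates 2 and 4. Without wildtype replicate 3 the difference was -0.26 (adjusted p = 0.634), and without wildtype replicate 1 it was 0.13 (adjusted p = 0.892).

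Plexin D1 is a receptor of endothelial cells for SEMA3E and, with a neuropilin, for SEMA3C, and mice without it have an undivided outflow tract. Plxnd1 read 0.24, 0.19, 0.45 and 0.23 in null hearts, against 0.40, 0.16 and 0.18 on wildtype replicates 2 to 4. The genotypes overlapped and the difference was 0.03 (SE 0.12, 95% interval -0.24 to 0.31, adjusted p = 0.953). Endothelial markers, of which 6 of 12 were measured, had higher values in null hearts for 5, beside 40.9% of all features. Their median difference was 0.11, and 0 passed the test. Their summed log2 ratio over the 5 measured on all arrays was 2.53 to 3.10 in null hearts, against 1.41 to 3.87 in wildtype hearts, so that the genotypes overlapped. Their part in the values of Plxnd1 and Nrp1 was not tested.

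Plexin B2 binds class 4 semaphorins and is widely expressed. Plxnb2 read -0.18, -0.11, -0.49 and -0.10 in null hearts, against -0.43, -0.09, -0.29 and -0.23 in wildtype hearts. The genotypes covered nearly the same range, with a difference of 0.04 (SE 0.12, 95% interval -0.23 to 0.32, adjusted p = 0.938). Without wildtype replicate 1 it was -0.01 (adjusted p = 0.979). The 2 spots in use differed by 0.13 and -0.08. Of its 2 other spots, 1 had no value on any null array, and the other read 0.54 to 1.70 on the 4 null arrays, against 1.65 and 1.01 on wildtype replicates 2 and 4.

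The intervals give the range of differences that the values allow for 1 gene at a time, before adjustment for the number of features. For Plxnd1, Plxnb2 and Sema4d they ended at folds of 0.794 to 1.24, null over wildtype, and for Plxna2 and Sema3c they were wider, at 0.715 to 1.43 and 0.578 to 1.06. The interval of Nrp1 ran from 0.973 to 1.41. The simulated data held 200 changed features of 11804 in each draw, with changes of 0.5, 1 or 1.5 on the log2 scale. There the test adjusted over all features found 0% of changes of 0.5 and 79.3% of changes of 1. The share of 79.3% depends on that number of changes and does not carry over to the real data. In the real data 0 features were called, and Gja1, at -0.95, had a limma adjusted p of 0.340. A missing call therefore says little about changes of the members' size.

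The rest of the family was read in the same fit. Of the 23 other semaphorin and plexin genes listed, 14 were on the array, 11 were measured, 0 passed over all features and 1 had an unadjusted p under 0.05, beside 8.23% of all features. Values were higher in null hearts for 5 and lower for 6, with a median difference of -0.0022, beside -0.04 for all features. Sema3g and Sema6c had a spot without a value on any array.

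Plxnb1 had the smallest p-value of the whole family. It encodes plexin B1, the high-affinity receptor for SEMA4D, which also couples to the MET receptor. It read 0.47, 0.17, 0.24 and 0.07 in null hearts, against -0.23, 0.05, -0.33 and -0.21 in wildtype hearts. All 4 null values lay above all 4 wildtype values, as they did for 2% of all features. The difference was 0.42 (SE 0.13, 95% interval 0.14 to 0.70, 1.34-fold, limma unadjusted p = 0.00646, adjusted p = 0.550), at rank 135 of the 11804 features. Its 3 spots agreed in sign, at 0.64, 0.28 and 0.36, whereas the first 2 spots had opposite signs in 40.3% of 3035 genes. The agreement is a description, since the gene is named for the average of these spots. The largest of the 3 rests on wildtype replicate 3, which read -0.93 there, against 0.14 and -0.11 on wildtype replicates 2 and 4. Leaving out 1 array at a time gave 0.35 to 0.50, and no centring gave 0.26. Its ligand gene Sema4d, given above, differed by -0.04.

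The other plexin genes gave no call. Plxna4, which serves axon guidance by semaphorins, differed by -0.29 (SE 0.17, adjusted p = 0.638) with 3 wildtype arrays measured. It was -0.18 without null replicate 1 and -0.44 without wildtype replicate 3. Plxnb3 differed by -0.13 (SE 0.15), or by -0.04 without null replicate 2 and -0.23 without null replicate 1. Plxna3 differed by 0.06 (SE 0.19), or 0.26 without wildtype replicate 1, Plxnc1, the receptor of the membrane-anchored SEMA7A, by 0.0030 (SE 0.13) and Plxna1 by -0.0022 (SE 0.15).

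Of the other ligand genes, Sema3d, whose product guides endothelial cells of the pulmonary veins in mice, differed by 0.27 (SE 0.18, adjusted p = 0.690), or by 0.12 without wildtype replicate 2 and 0.14 without null replicate 3. It read 0.01, 0.18, 0.67 and 0.24 in null hearts, against -0.30, 0.13 and 0.18 on wildtype replicates 2 to 4. Null replicate 3 was highest, and the other null values overlapped with wildtype. Sema3f, a class 3 ligand that acts through NRP2, differed by -0.15 (SE 0.10, adjusted p = 0.690), with -0.15, -0.05, 0.03 and -0.39 on its 4 spots in use. Sema4c, which encodes a ligand of plexin B2, differed by -0.17 (SE 0.10, adjusted p = 0.663), and Sema6a, a transmembrane ligand of plexins A2 and A4, by -0.15 (SE 0.12, adjusted p = 0.730). Sema5a differed by 0.07 (SE 0.16, adjusted p = 0.917).

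**Figure D3:**
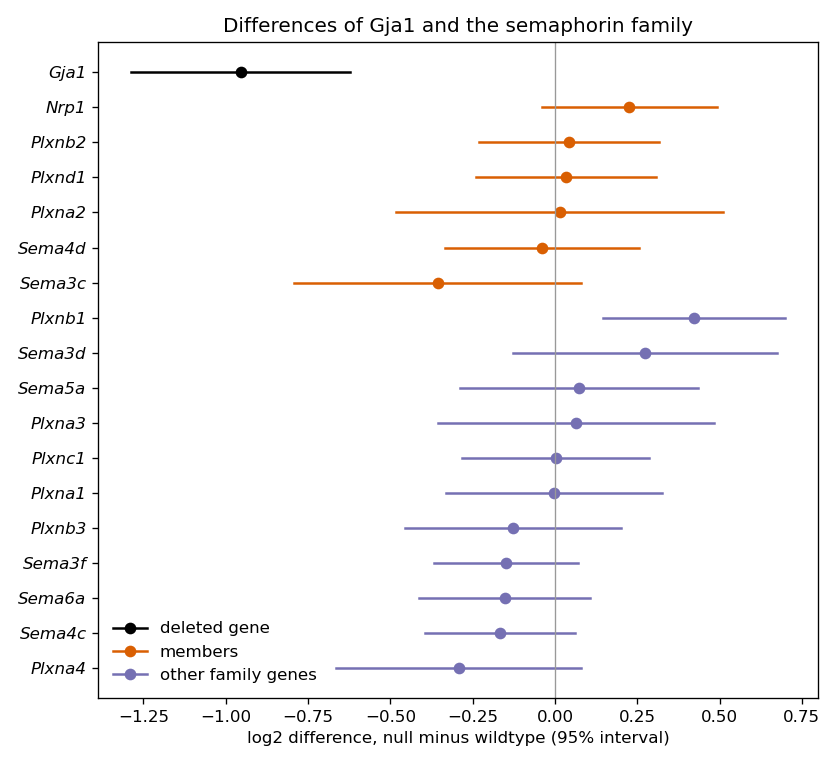
The plot shows the log2 difference, null minus wildtype, with its 95% interval from limma (horizontal axis) for Gja1, the 6 measured members and the 11 other measured family genes. The intervals of Gja1 (-1.29 to -0.62) and Plxnb1 (0.14 to 0.70) lie off 0 before adjustment for the number of features, and those of the members all cross 0.

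Partners at the cell surface were next. Of 25 listed co-receptors and neuropilin ligands, 9 were measured, with 5 higher and 4 lower in null hearts, 0 past the test and a median difference of 0.02. Flt1, the VEGF receptor that shares VEGF-A with NRP1, differed by 0.25 (SE 0.14, adjusted p = 0.635), or 0.39 without wildtype replicate 2. Itgb1, the gene of an integrin chain whose activity some semaphorins lower, differed by 0.14 (SE 0.10). The TGF-beta receptor gene Tgfbr2 differed by -0.21 (SE 0.15), or -0.10 without wildtype replicate 1 and -0.11 without null replicate 1. L1cam, a partner of NRP1 in axons, differed by 0.10 (SE 0.13), or 0.15 without wildtype replicate 1.

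Inside the cell, plexins signal through GTPases, kinases and actin-modifying enzymes. Of 40 listed relay genes 24 were measured, with 8 higher and 16 lower in null hearts, 0 past the test, and a median of -0.07. Lower values stood beside 59.1% of all features, and 2 genes had an unadjusted p under 0.05, beside 8.23%, so that both counts lay near those shares. Mical2, of a family of monooxygenases that take actin filaments apart, read 0.31, 0.34, 0.27 and 0.33 in null hearts, against -0.42, 0.16, -0.13 and 0.26 in wildtype hearts. The null arrays lay close together and just above the highest wildtype array. All null values lay above all wildtype values in 1 of the 24 measured relay genes, beside 2% of all features. The difference of Mical2 was 0.34 (SE 0.15, adjusted p = 0.590), or 0.21 without wildtype replicate 1. Fyn, a kinase bound to plexins, differed by 0.35 (SE 0.15, adjusted p = 0.594), or 0.21 without wildtype replicate 1. Dpysl3, a member of the collapsin response mediator family that carries the semaphorin signal to microtubules, differed by 0.33 (SE 0.15, adjusted p = 0.594). The small GTPase gene Rnd2 differed by -0.35 (SE 0.16, adjusted p = 0.594) with 3 arrays per genotype, and by -0.23 without null replicate 1.

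Genes of outflow tract formation showed no common direction. Of 40 listed transcription factor and signal genes 12 were measured, with 6 higher and 6 lower in null hearts, 0 past the test, 1 with an unadjusted p under 0.05 (8.23% of all features) and a median of 0.01. Eya1, a transcriptional cofactor and phosphatase of the second heart field, read -1.17, -1.35, -1.90 and -1.14 in null hearts, against -0.24, -0.62, -0.79 and -1.36 in wildtype hearts. Wildtype replicate 4 lay within the null range, and the difference was -0.64 (SE 0.23, adjusted p = 0.558). Vangl2, a planar polarity gene needed in mice for the outflow tract, differed by -0.31 (SE 0.22, adjusted p = 0.707), by -0.01 without wildtype replicate 1 and by -0.47 without wildtype replicate 4. The BMP receptor gene Bmpr2 differed by -0.17 (SE 0.12), or -0.07 without null replicate 1. The T-box factor gene Tbx5 differed by 0.18 (SE 0.13), or 0.10 without wildtype replicate 2 and 0.11 without null replicate 3.

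Of 24 listed cardiac neural crest genes 6 were measured, too few to describe that lineage, with 2 higher and 4 lower, 0 past the test and a median of -0.04. Nf1, which restrains RAS, differed by 0.45 (SE 0.26, adjusted p = 0.647), by 0.19 without wildtype replicate 1 and by 0.29 without null replicate 3. Pdgfra differed by 0.20 (SE 0.13), Crkl by -0.15 (SE 0.17), or -0.28 to -0.04 without 1 array, and Ece1, which encodes the enzyme that activates endothelin, by -0.05 (SE 0.13), or 0.03 without wildtype replicate 1.

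Other guidance families were tested in the same way. Of 33 listed ephrin, Slit, netrin and related genes 10 were measured, with 6 higher and 4 lower in null hearts, 0 past the test, 1 with an unadjusted p under 0.05 (8.23% of all features) and a median of 0.01. Epha2, an ephrin receptor gene, read -0.52, -0.33, -0.26 and -0.20 in null hearts, against 0.30, 0.06, -0.06 and -0.13 in wildtype hearts. All null values were below all wildtype values, as for 5.54% of all features, with a difference of -0.37 (SE 0.13, adjusted p = 0.553). The Slit receptor gene Robo1 differed by 0.39 (SE 0.20, adjusted p = 0.620), or 0.20 without null replicate 3. Rgma differed by -0.16 (SE 0.12), or -0.07 without null replicate 3 and -0.24 without null replicate 1, and its receptor gene Neo1 by 0.11 (SE 0.11).

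Markers of other cells were read beside these genes. Heart muscle markers had no shared direction, with 3 higher and 4 lower in null hearts of 7 measured of 18. In 1 of them the null values lay below all wildtype values, beside 5.54% of all features. Macrophage markers were higher for 2 and lower for 2 of 4 measured of 7. Epicardium markers were higher for 1 and lower for 2 of 3 measured of 7. Fibroblast markers were higher in null hearts for 5 of 5 measured of 9 listed (median 0.08), beside 40.9% of all features. Smooth muscle markers were lower for 3 of 3 measured of 8 (median -0.03), beside 59.1%. Erythroid markers were higher for 5 of 5 measured of 7 (median 0.21, range 0.18 to 0.35), beside 40.9% of all features, and 0 of them had an unadjusted p under 0.05. Liver markers were lower for 4 of 5 measured of 7 (median -0.25), beside 59.1% of all features. An unadjusted limma p under 0.05 was found for 2 of them, beside 8.23% of all features, Fgb at -0.71 and Afp at 0.32. For nerve cells 1 of 9 markers was measured (Schwann cells 2 of 6), so that the nerves in which semaphorins act were hardly covered. Lung epithelium markers were lower for 3 of 3 measured of 6, beside 59.1% of all features, and in all 3 the genotypes did not overlap, beside 5.54% of all features lower. Their summed log2 ratio over the 2 on all arrays was -6.67 to -5.86 in null hearts, against -5.61 to -4.58 in wildtype hearts. Markers of other adult tissues were lower for 11 of 11 measured of 27, beside 59.1%, with a median of -0.33. This list shares Scgb1a1 and Sftpc with that of lung epithelium and Mbp with that of Schwann cells. It also shares Fgb, Apoa1, Alb and Ttr with that of liver. Of its 11 measured genes, 5 had an unadjusted limma p under 0.05, beside 8.23% of all features. In 4 the null values lay below all wildtype values, beside 5.54%. No marker of any of these lists passed the test, and the part of the markers in the members' values was not tested.

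Of the 6 pairs among the 4 members with values on all arrays, 1 had a positive correlation, or 2 without wildtype replicate 1. As a description over 8 arrays, which share the reference and the centring, Pearson's r between Sema3c and Plxna2 was 0.46, or 0.28 without wildtype replicate 1, and between Sema3c and Nrp1 it was -0.41, or -0.05 without that array. Between Nrp1 and Plxnb2 it was -0.41, or -0.81 without that array. Among 5676 other named genes with values on all 8 arrays, the patterns most like Sema3c were those of Zfp622 (r = 0.996) and Setbp1 (r = 0.991), which kept 0.981 and 0.948 without wildtype replicate 1. Those most like Nrp1 were Txndc17 (r = 0.968) and Nhsl1 (r = 0.962). For Plxna2 they were Usp24 (r = 0.984) and Ppm1b (r = 0.982), and for Plxnb2 they were Borcs7 (r = 0.970) and Cdc42se1 (r = 0.931). The 8 genes were picked as the best of all searched, so that the size of r is a description.

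**Figure D4:**
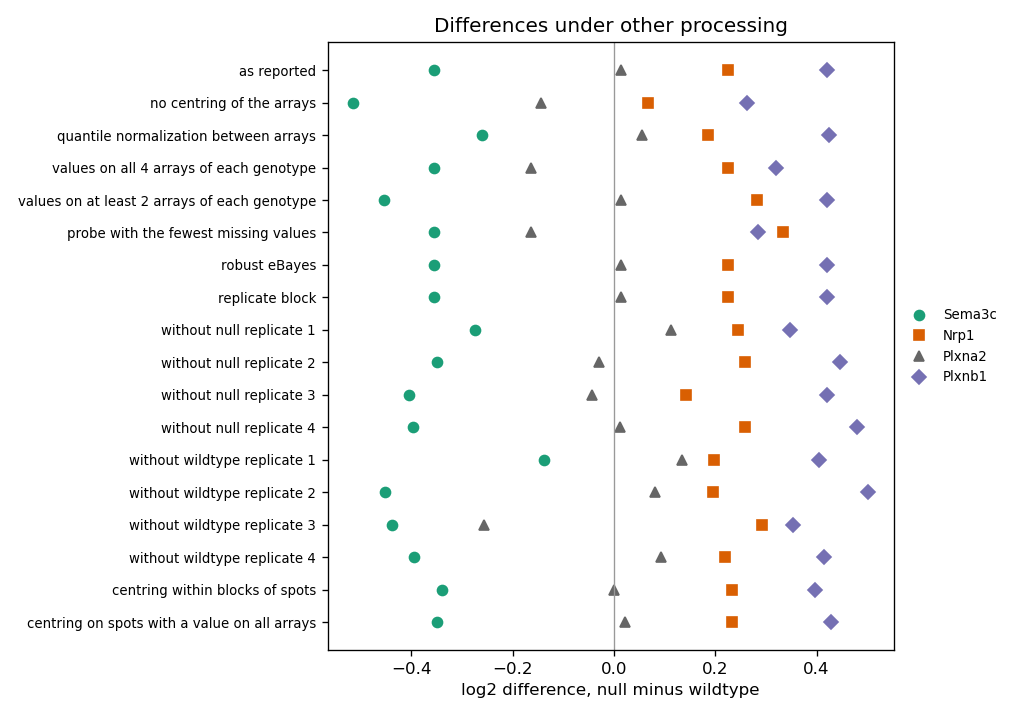
The plot shows the log2 difference, null minus wildtype (horizontal axis), of Sema3c, Nrp1, Plxna2 and Plxnb1 as reported and under each alternative that gives 1 value per gene. Plxna2 lies on both sides of 0, whereas Sema3c keeps below 0 (-0.51 to -0.14) and Nrp1 (0.07 to 0.33) and Plxnb1 (0.26 to 0.50) keep above 0 in the settings shown.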

How the data were processed

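RNA of 8 pools of 3 neonatal hearts was measured on 2-colour arrays, and the authors' deposited table holds a log2 ratio per spot. Base 2 was taken from the deposited values: within blocks of 598 spots, 8347 of 31304440 pairs differed by the log of a ratio of small whole numbers (at most 120, tolerance 1.5e-09) in base 2, against 269 in base e and 863 in base 10. For scanner, background correction, spot filter and scaling, the sources used here state nothing. No label gives the ratio's direction, which was read from heart muscle markers. Gene names are those of the array's annotation in GEO and may be outdated (18511 with 1 symbol, 937 with several, 9256 unnamed here), and 0 of 18267 matched in GRCm38.p6 received a newer symbol. Promoter windows are RefSeq's.

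Arrays were centred on their medians. Spots that had at least 3 values per genotype were averaged per gene by a fit of spot and array effects. The contrast, null minus wildtype, came from limma's lmFit and eBayes, version 3.58.1 (R 4.3.3), Benjamini-Hochberg adjusted over 11804 features, threshold 0.05. The scripts were tested on simulated data. Python 3.11.15 made tables and figures. When an array was left out, the spots in use stayed and its genotype needed 2 values.

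The members and lists were chosen with earlier results of these data known. By rule, the text names the members, Gja1, every measured family gene and up to 4 genes per further list by p-value. The rule also takes the 2 genes most like each member on all 8 arrays. Outside the rule, it names Gata6, the unmeasured family genes Sema3g, Sema4g and Sema6c, and some cell type markers.

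Alternatives were no centring, quantile normalization, limits of 4 or 2 arrays per genotype, single spots, the spot with the fewest missing values, robust eBayes, the replicate number as a block and each array left out. Centring within blocks and on spots with a value on all arrays were chosen after seeing the data.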

Additional observations from a re-analysis of the deposited data

Results flagged for a closer look

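Groups of 4 arrays were examined for Gja1, the measured members and family genes, and up to 4 genes per further list. In 3 of these 55 groups, 1 array stood apart from the other 3 by more than Dixon's critical value at 95%. Chance alone gives this in about 1 of 20 groups. Nrp1 read 1.09 on null replicate 3, against 0.74 to 0.78 on the other null arrays. Plxna2 read -0.87 on wildtype replicate 3, against 0.09 to 0.26 on the other wildtype arrays. Nf1 read -1.14 on wildtype replicate 1, against -0.12 to -0.01 on the other wildtype arrays.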

How the results depend on the processing

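In each alternative 0 features, 0 members and 0 family genes passed the limma test. Of 685 recomputed differences of 38 genes, 636 kept their direction, and the lowest adjusted p was 0.221, for Gja1. Features at an unadjusted p under 0.05 numbered 248 higher and 724 lower in null hearts as reported. They were 28 higher and 1364 lower without centring, which moved the median of all features to -0.18, 380 higher with single spots and 440 lower with values required on all 4 arrays. Members without overlap numbered 1 with at least 2 arrays per genotype, and 0 to 2 with 1 array left out. The share of all features without overlap is not given for these settings, and the 7.54% above is for the setting as reported. No result about the members is read from these counts. The following differences turned in sign, and the cause was not tested unless named. Without centring, values were -0.14 for Plxna2, -0.031 for Plxnd1, -0.12 for Plxnb2, -0.094 for Plxna3, -0.025 for Plxnc1, -0.019 for Itgb1, -0.14 for L1cam and -0.044 for Neo1. Quantile normalization gave -0.010 for Plxnd1 and 0.0029 for Sema4d. With values on all 4 arrays, Plxna2 had -0.16 and Plxnb2 -0.083, since 1 spot of each was lost. With at least 2 arrays Pdgfra had -0.17, since a spot was added. Single spots read -0.16 for Plxna2, -0.083 for Plxnb2, 0.035 for Sema3f, -0.082 for Itgb1, 0.035 for Ece1 and -0.13 for Neo1. The spot with the fewest missing values gave -0.16 for Plxna2, -0.083 for Plxnb2, 0.035 for Ece1 and -0.13 for Neo1. Centring within blocks gave -2.6e-05 for Plxna2 and 0.051 for Plxna1, and centring on common spots 0.0095 for Plxna1. With 1 array left out, ranges were -0.26 to 0.13 for Plxna2, -0.025 to 0.11 for Plxnd1, -0.091 to 0.035 for Sema4d, -0.015 to 0.13 for Plxnb2, -0.020 to 0.17 for Sema5a, -0.10 to 0.094 for Plxna1, -0.077 to 0.26 for Plxna3, -0.060 to 0.055 for Plxnc1 and -0.12 to 0.031 for Ece1. The replicate number as a block gave -0.36 for Sema3c, 0.23 for Nrp1, -0.020 for Sema5a and 0.094 for Plxna1 and called 0 features. The numbers do not pair the arrays by the data: same-numbered arrays had correlations of -0.25 to -0.01 in their deviations from the genotype means, and 0 of 8 arrays correlated best with its own number. Signal over background is not known for these ratios, so that its limit on the dim spots cannot be given.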

Other observations

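Sema4g, a class 4 semaphorin gene, had 1 spot with values of -1.30 and -0.69 on null replicates 3 and 4 and no value on the other null arrays, against -0.47, -0.52, -0.52 and -0.61 in wildtype hearts. It was too sparse for the rule. With at least 2 arrays per genotype in place of 3, its difference was -0.47 (limma unadjusted p = 0.0287, adjusted p = 0.581). Plxna4 had a second, sparse spot that read -0.81 and -0.00 on null replicates 1 and 4, against 0.86, -0.24 and 0.47 on wildtype replicates 2 to 4.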
